A study of Arabidopsis with 12 samples.

Results

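Indole glucosinolates are sulfur-rich defense compounds that *Arabidopsis* makes from tryptophan. The data set holds 10 selected genes of their synthesis, use and regulation, found by their locus identifiers among the 27371 genes of the expression table. These genes, on chromosomes 1, 2, 4 and 5, are *CYP79B2* (AT4G39950), *CYP79B3* (AT2G22330), *CYP83B1* (AT4G31500), *SUR1* (AT2G20610), *CYP81F2* (AT5G57220), *PEN2* (AT2G44490), *PEN3* (AT1G59870), *MYB34* (AT5G60890), *MYB51* (AT1G18570) and *MYB122* (AT1G74080). All 10 were in the table, and all 10 passed the minimum of 1 FPKM in at least 1 condition that 19323 genes passed. *MYB122* did so only after flg22, so its passing depended on the conditions in which it was high.

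In the pathway, CYP79B2 and CYP79B3 turn tryptophan into an aldoxime, which CYP83B1 oxidizes. The activated product is joined to glutathione and trimmed, SUR1 cleaves the carbon-sulfur bond, and glucose and sulfate are added to give the parent indole glucosinolate. CYP81F2 then hydroxylates the indole ring, and methyltransferases convert the product to a methoxylated form. In pathogen defense, the atypical myrosinase PEN2 hydrolyzes these compounds and the ABC transporter PEN3 acts in the export of defense products at the plasma membrane. The R2R3-MYB factors MYB34, MYB51 and MYB122 activate the biosynthetic genes.

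RNA-Seq was performed on whole 14-day-old seedlings of the CRISPR-Cas9 mutant *wlim2a-1* and of WT (Col-0), each given either flg22, an elicitor peptide from bacterial flagellin, at 1 µM for 1 h, or water (mock). The mutant is 1 line, with a small insertion in the coding region of the actin-binding protein gene *WLIM2A* that shifts the reading frame and was selected to be free of Cas9. The 4 conditions, *wlim2a-1* flg22, *wlim2a-1* mock, WT flg22 and WT mock, had 3 biological replicates each, 12 samples in all. FPKM is fragments counted, scaled for transcript length and library size, and whether the size used was a total or a quartile is not stated. The deposited values are a single FPKM for each gene in each condition, with the replicates already combined. No SD, confidence interval or p-value therefore accompanies any value below, and whether a difference is larger than the spread between replicates was not tested. Differences are given as log2 of FPKM + 1, which understates the change of genes with few FPKM, and the threshold for a call was a 2-fold difference of FPKM + 1.

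The labels give a guaranteed minimum number of reads, the same for all 12 samples, and the number obtained is not stated there. The targeted gene *WLIM2A* had 6.20 FPKM in *wlim2a-1* flg22 and 10.9 in *wlim2a-1* mock, against 11.6 in WT flg22 and 12.6 in WT mock. An insertion need not remove the transcript, so this level does not test the genotype. Whether the insertion changed the level of the transcript was not tested. The *wlim2a-1* mock values stood apart in transcripts of the chloroplast genome. Its 88 genes summed to 11505 FPKM in *wlim2a-1* flg22 and 41273 in *wlim2a-1* mock, against 10657 in WT flg22 and 15705 in WT mock. Green tissue was present in all conditions, with 10942 to 14770 summed FPKM over 5 shoot markers, while the shoot markers *RBCS1A* and *CAB1* were listed at 0 in both WT conditions. Such a value can be a failed estimate. The locus AT2G01021 held 28.9% to 67.4% of the summed FPKM of a condition, so scalings without it were tried. None of the 10 genes was listed at 0 in any condition.

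**Figure D1:**
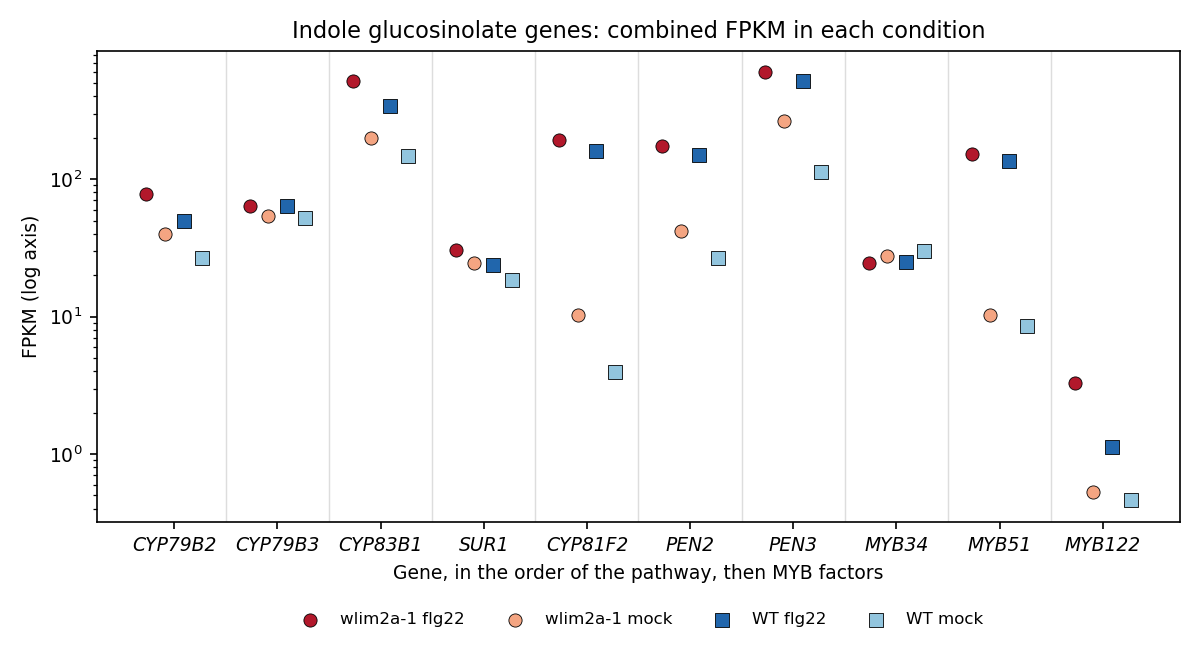
FPKM on a log axis for each of the 10 genes (x axis) in *wlim2a-1* flg22, *wlim2a-1* mock, WT flg22 and WT mock. Each point is the authors' combined value of 3 replicates, with no error available. *CYP81F2*, *PEN2* and *MYB51* sit above 130 FPKM in both flg22 conditions and below 45 in both mock conditions, and the 4 points of *MYB34* lie between 24.6 and 29.8.

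After flg22, the same 5 genes led the list in both genotypes, in the order *PEN3*, *CYP83B1*, *CYP81F2*, *PEN2* and *MYB51*. In *wlim2a-1* flg22 these genes ranged from 600.2 FPKM for *PEN3* to 152 for *MYB51*, and in WT flg22 from 515 for *PEN3* to 136 for *MYB51*. In mock, *CYP81F2* and *MYB51* stood near the bottom instead. *CYP81F2* took place 8 of 10 in *wlim2a-1* mock against place 9 in WT mock, and *MYB51* took place 9 in *wlim2a-1* mock against place 8 in WT mock. *MYB122* had the lowest level of the 10 in every condition. Which neighbors in this order differ beyond the spread of samples was not tested.

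The first comparison asked how the pathway responded to flg22 in each genotype. In *wlim2a-1*, 6 of the 10 genes were higher by at least 2-fold after flg22, against 5.53% of all genes tested, and none was lower, against 4.25%. In WT, 5 of the 10 were higher, against 4.47% of all genes tested, and none was lower, against 0.471%. The 5 genes *CYP83B1*, *CYP81F2*, *PEN2*, *PEN3* and *MYB51* were higher in both genotypes, and *MYB122* was counted in *wlim2a-1*. The *wlim2a-1* mock and WT mock values also enter the comparison of the genotypes, so the comparisons share conditions. Taken over the 10 genes, the median was 1.27 in *wlim2a-1*, where that of all genes tested was −0.09, and 1.04 in WT, where that of all genes was −0.05, on the log2 scale. Of the 10, 9 had a value above 0 in each genotype, against 8108 of the 19323 genes tested in *wlim2a-1* and 7907 in WT. Relative to the reference genes *ACT2* and *UBQ10* this number was 7 in each, and with the conditions scaled to the same sum without AT2G01021 it was 10 in *wlim2a-1*. The transcripts come from whole seedlings, so more RNA per cell and more cells of a type cannot be told apart.

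Summed over the 10 genes, the level was 1836 FPKM in *wlim2a-1* flg22 and 671 in *wlim2a-1* mock, against 1467 in WT flg22 and 428 in WT mock. The 4 core enzyme genes had medians of 0.63 in *wlim2a-1* and 0.61 in WT for the log2 difference with flg22. For *CYP81F2*, *PEN2* and *PEN3* the median was 2.03 in *wlim2a-1* and 2.44 in WT.

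Among the enzymes that build the core structure, the response was modest and uneven. *CYP83B1*, which commits the aldoxime to glucosinolates, had 514 FPKM in *wlim2a-1* flg22 and 198 in *wlim2a-1* mock, against 343 in WT flg22 and 148 in WT mock. The response to flg22, on the log2 scale, was 1.37 in *wlim2a-1* and 1.20 in WT, and no other of the 4 core genes passed 2-fold in either genotype. Relative to *ACT2* and *UBQ10* it was under 2-fold, at 0.80 in *wlim2a-1* and 0.77 in WT. *CYP79B2*, an entry enzyme, had 78.4 FPKM in *wlim2a-1* flg22 and 39.6 in *wlim2a-1* mock, against 49.8 in WT flg22 and 26.7 in WT mock. These values gave log2 differences of 0.97 in *wlim2a-1* and 0.88 in WT, just under the threshold. The value in *wlim2a-1* passed it, at 1.14 and 1.09, when the conditions were scaled to the same sum of all or of nuclear genes without AT2G01021.

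The second entry enzyme gene, *CYP79B3*, had 64.3 FPKM in *wlim2a-1* flg22 and 53.8 in *wlim2a-1* mock, against 63.8 in WT flg22 and 52.5 in WT mock. With flg22 it differed by 0.25 on the log2 scale in *wlim2a-1* and by 0.28 in WT. Relative to *ACT2* and *UBQ10* the values were negative, at −0.31 in *wlim2a-1* and −0.15 in WT. Under that scaling the median of all genes tested was lower still, at −0.58 in *wlim2a-1* and −0.42 in WT. The ratio of *CYP79B2* to *CYP79B3* FPKM within a condition does not depend on how the conditions were scaled. It was 1.22 in *wlim2a-1* flg22 and 0.74 in *wlim2a-1* mock, against 0.78 in WT flg22 and 0.51 in WT mock. Among these 4 conditions, *CYP79B2* exceeded its paralog only in *wlim2a-1* flg22. The 2 genes are close paralogs, and how reads that could match both were assigned is not stated in the sources used here.

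*SUR1*, the C-S lyase gene, had 30.5 FPKM in *wlim2a-1* flg22 and 24.7 in *wlim2a-1* mock, against 23.7 in WT flg22 and 18.6 in WT mock. With flg22 it differed by 0.29 on the log2 scale in *wlim2a-1* and by 0.33 in WT. Relative to *ACT2* and *UBQ10* it differed by −0.26 in *wlim2a-1* and −0.08 in WT. The medians of all genes tested were then −0.58 in *wlim2a-1* and −0.42 in WT. Within each condition *SUR1* lay well below *CYP83B1*, at a ratio of 0.059 in *wlim2a-1* flg22 and 0.12 in *wlim2a-1* mock, against 0.069 in WT flg22 and 0.13 in WT mock.

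The genes for modification, activation and transport of the product followed. In WT all 3 responded more than *CYP83B1*, and in *wlim2a-1* *CYP81F2* and *PEN2* did so, while *PEN3* was below it. *CYP81F2* had 194 FPKM in *wlim2a-1* flg22 and 10.3 in *wlim2a-1* mock, against 161 in WT flg22 and 3.93 in WT mock. The ratio of FPKM between flg22 and mock was 18.9 in *wlim2a-1* and 41.0 in WT, and the log2 differences were 4.11 in *wlim2a-1* and 5.04 in WT. Ordered by this difference among the 19323 genes tested, *CYP81F2* was number 56 in *wlim2a-1* and number 21 in WT. Its 2 flg22 values lay close together, and its 2 mock values differed by a ratio of 2.62.

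*PEN2* had 174 FPKM in *wlim2a-1* flg22 and 42.0 in *wlim2a-1* mock, against 149 in WT flg22 and 26.6 in WT mock. These values differed by 2.03 on the log2 scale in *wlim2a-1* and by 2.44 in WT. *PEN3*, the most abundant of the 10 transcripts except in WT mock, had 600.2 FPKM in *wlim2a-1* flg22 and 265 in *wlim2a-1* mock, against 515 in WT flg22 and 113 in WT mock. The response was 1.18 on the log2 scale in *wlim2a-1*, or 0.60 relative to *ACT2* and *UBQ10*, and 2.18 in WT. For *CYP81F2*, *PEN2* and *PEN3* alike, the mock level was higher in *wlim2a-1* and the flg22 levels of the genotypes were closer to each other.

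**Figure D2:**
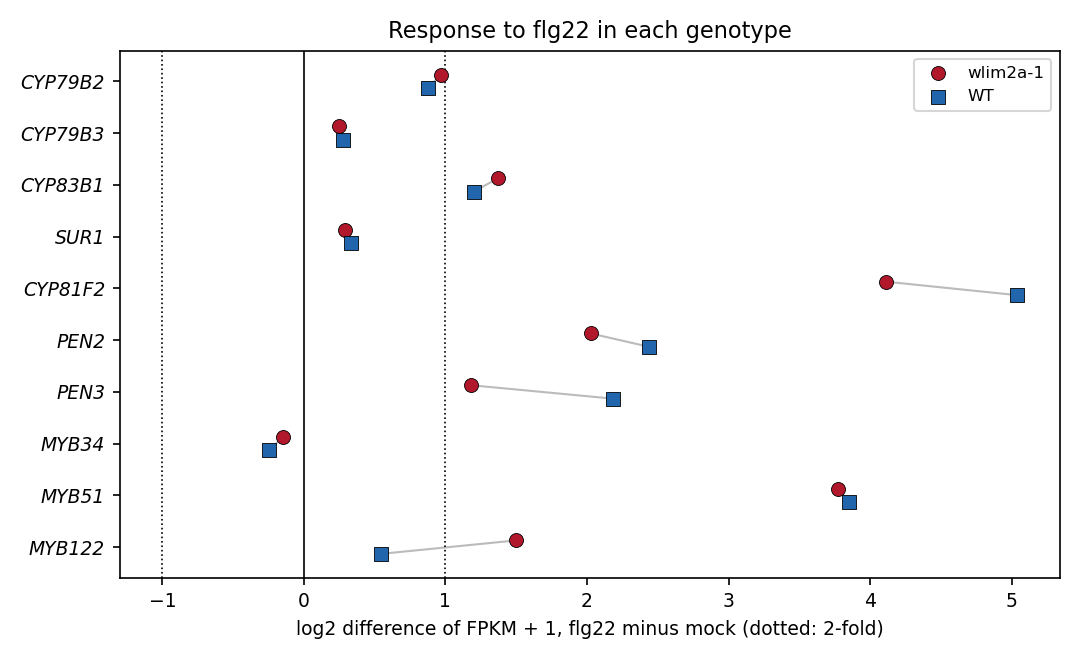
Log2 difference of FPKM + 1 between flg22 and mock (x axis) for each gene (y axis) in *wlim2a-1* (circles) and WT (squares), 1 combined value per condition. Dotted lines mark 2-fold. *CYP81F2* and *MYB51* lie farthest to the right, *MYB34* lies just left of 0 in both genotypes, and the genotypes are farthest apart for *PEN3*, *MYB122* and *CYP81F2*.

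The 3 MYB factors differed in their response. *MYB51* had 152 FPKM in *wlim2a-1* flg22 and 10.2 in *wlim2a-1* mock, against 136 in WT flg22 and 8.52 in WT mock. The log2 difference was 3.77 in *wlim2a-1* and 3.85 in WT, number 73 and number 69 among the genes tested. *MYB34* had 24.6 FPKM in *wlim2a-1* flg22 and 27.4 in *wlim2a-1* mock, against 25.0 in WT flg22 and 29.8 in WT mock. The log2 difference for flg22 was −0.15 in *wlim2a-1*, or 0.02 when the conditions were scaled to the same sum without the locus AT2G01021, and −0.24 in WT.

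*MYB122* was scarce, with 3.32 FPKM in *wlim2a-1* flg22 and 0.53 in *wlim2a-1* mock, against 1.13 in WT flg22 and 0.46 in WT mock. On the log2(FPKM + 1) scale it differed with flg22 by 1.5 in *wlim2a-1* and 0.54 in WT, while the ratio of FPKM reached 6.29 in *wlim2a-1* and 2.45 in WT. The choice of pseudocount decided its count in both genotypes. With a pseudocount of 5 the difference in *wlim2a-1* was 0.59, and with a pseudocount of 0.1 that in WT was 1.13.

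The make-up of the MYB pool was therefore different in the 2 treatments. *MYB51* held 84.5% of the summed FPKM of the 3 factors in *wlim2a-1* flg22 and 26.8% in *wlim2a-1* mock, against 83.9% in WT flg22 and 22.0% in WT mock. *MYB34* held 13.6% in *wlim2a-1* flg22 and 71.8% in *wlim2a-1* mock, against 15.4% in WT flg22 and 76.9% in WT mock. The share of *MYB122* stayed between 0.70% and 1.84% in the 4 conditions.

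A similar exchange was seen among the 4 *CYP81F* genes, whose products hydroxylate the indole ring. *CYP81F2* held 59.2% of their summed FPKM in *wlim2a-1* flg22 and 7.07% in *wlim2a-1* mock, against 54.7% in WT flg22 and 2.36% in WT mock. In mock, *CYP81F4* held the largest share, namely 69.5% for *wlim2a-1* and 79.1% for WT. The level of *CYP81F4* itself was 101 FPKM in *wlim2a-1* flg22 and 101 in *wlim2a-1* mock, against 102 in WT flg22 and 131 in WT mock. The 4 values of *CYP81F1* lay between 26.5 and 28.5 FPKM. Of the 4 genes, *CYP81F2* was counted as higher after flg22 in both genotypes and the others in neither.

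**Figure D3:**
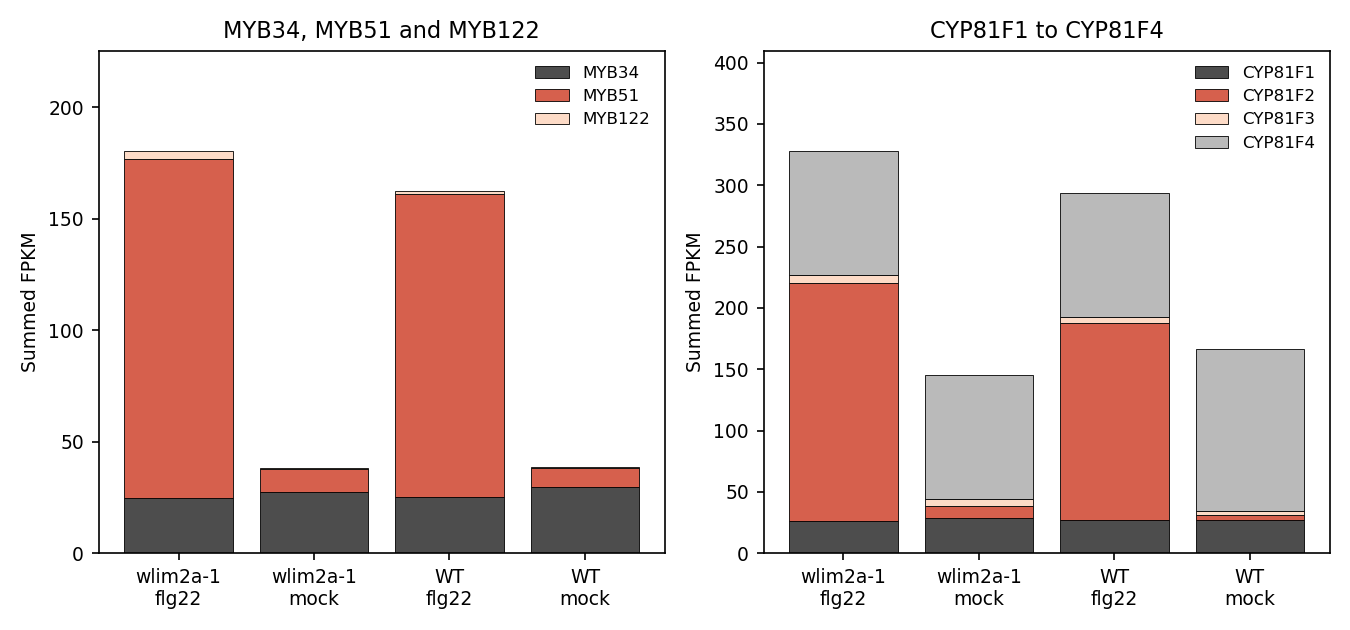
Summed FPKM (y axis) of the MYB34, MYB51 and MYB122 genes (left) and of CYP81F1 to CYP81F4 (right) in *wlim2a-1* flg22, *wlim2a-1* mock, WT flg22 and WT mock, stacked by gene. *MYB51* and *CYP81F2* make up most of the flg22 bars, and *MYB34* and *CYP81F4* most of the mock bars, in both genotypes.

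The second question was how *wlim2a-1* differed from WT. In mock, 2 of the 10 genes were higher in *wlim2a-1* by at least 2-fold, *PEN3* and *CYP81F2*, against 4.48% of all genes tested, and none was lower, against 0.611%. The FPKM ratio of *wlim2a-1* mock to WT mock was 2.35 for *PEN3* and 2.62 for *CYP81F2*, with log2 differences of 1.22 for *PEN3* and 1.19 for *CYP81F2*. That of *CYP81F2* was 0.77 with a pseudocount of 5. *PEN2* followed with a log2 difference of 0.64, *CYP79B2* with 0.55, *CYP83B1* with 0.41 and *SUR1* with 0.39. The values for the 3 MYB factors were 0.24 for *MYB51*, 0.06 for *MYB122* and −0.12 for *MYB34*.

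The median of the 10 genes in mock was 0.40, where that of all genes tested was 0.01. In 9 of the 10 genes the *wlim2a-1* mock level exceeded the WT mock level, against 9860 of the 19323 genes tested. However, *CYP79B3* lay below 0 when the conditions were scaled to the same upper quartile, at −0.05, or to the same sum without AT2G01021, at −0.01. *MYB34* lay above 0, at 0.07, relative to *ACT2* and *UBQ10*. Other transcripts also differed in this comparison. The chloroplast-encoded genes had a median log2 difference of 2.00 in *wlim2a-1* mock, with 65 of the 83 tested at least 2-fold higher. All 8 root markers were below 0 in *wlim2a-1* mock, against 9414 of the 19323 genes tested, with a median of −0.48. Their summed level was 238 FPKM in *wlim2a-1* mock, against 330.2 FPKM in WT mock. Of the 8, 1, *IRT1*, was at least 2-fold lower, against 0.611% of all genes tested. Relative to *ACT2* and *UBQ10*, 7 of the 8 root markers were below 0. The 5 shoot markers above 0 in every condition had a median of −0.23 in mock, with 3 below 0 and 2 above. Their summed level was 11264 FPKM in *wlim2a-1* mock, against 14770 in WT mock. The part of these differences in the values of *PEN3*, *CYP81F2* and the other 8 genes was not tested. With combined values, a deviation of 1 *wlim2a-1* mock replicate and of all 3 cannot be told apart.

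After flg22, the difference between the genotypes lay closer to 0 than in mock for 7 of the 10 genes. The share of all genes for which it did so was not counted. Taken with its sign, the log2 difference was larger after flg22 than in mock for 4 of the 10, against 8830 of the 19323 genes tested. The number among the 10 depended on the scaling. It was 7 with the same upper quartile and with either sum scaling without AT2G01021, and 2 relative to *ACT2* and *UBQ10*. The median of all genes tested moved likewise. From −0.04 as deposited it went to 0.04 with the upper quartile, 0.14 with the sum, 0.11 with the nuclear sum and −0.17 relative to *ACT2* and *UBQ10*. *MYB122* alone was higher in *wlim2a-1* by at least 2-fold, against 1.16% of all genes tested, and none was lower, against 0.352%. Its log2 difference of 1.02 rested on 3.32 FPKM in *wlim2a-1* flg22 and 1.13 FPKM in WT flg22, and was 0.44 with a pseudocount of 5 and under 2-fold relative to *ACT2* and *UBQ10*. *CYP79B2* had a log2 difference of 0.64 and *CYP83B1* one of 0.58, both larger than their values in mock. *SUR1* had 0.35, *CYP81F2* 0.27, *PEN2* 0.22, *PEN3* 0.22 and *MYB51* 0.16. *CYP79B3* and *MYB34* lay at 0.01 and −0.02, and *MYB34* was above 0 under both sum scalings and relative to *ACT2* and *UBQ10*, by at most 0.14. The median of the 10 genes was 0.25, where that of all genes tested was −0.02. With the same sum without AT2G01021, the median of the 10 genes was 0.42 and that of all genes 0.13.

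**Figure D4:**
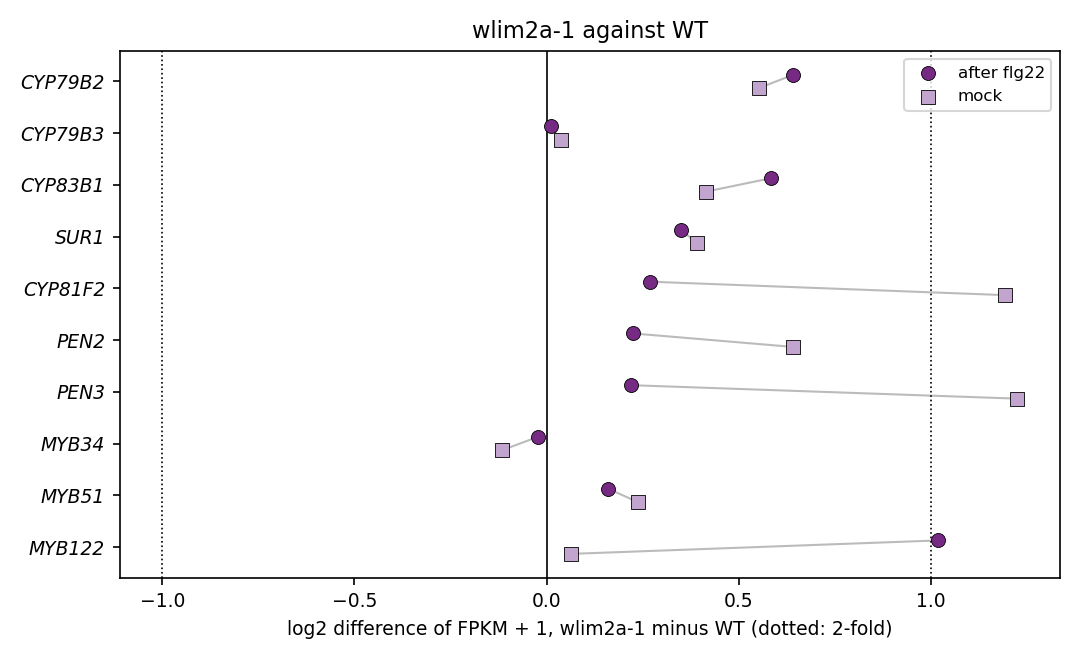
Log2 difference of FPKM + 1 between *wlim2a-1* and WT (x axis) for each gene (y axis) after flg22 (circles) and in mock (squares), 1 combined value per condition. Dotted lines mark 2-fold. *CYP81F2* and *PEN3* pass the right line in mock only, *MYB122* passes it after flg22 only, and *CYP79B3* and *MYB34* lie near 0.

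The response to flg22 was then set side by side between the genotypes, as the log2 difference in *wlim2a-1* minus that in WT. None of the 10 genes exceeded WT by at least 1, against 1.46% of all genes tested, and 1 gene fell short of WT by at least 1, against 3.70%. That gene was *PEN3*, at −1.004, which was within 2-fold with a pseudocount of 5 and with the upper quartile or sum scalings, where the value nearest to 0 was −0.79. Just inside the limit lay *CYP81F2* at −0.92 and *MYB122* at 0.96. *CYP81F2* passed it with a pseudocount of 0.1, at −1.09, and relative to *ACT2* and *UBQ10*, at −1.07. *MYB122* passed it with a pseudocount of 0.1, at 1.31, and under both sum scalings. *PEN2* had −0.42 and *CYP83B1* 0.17, and the other 5 genes lay between −0.08 and 0.09. Without values per replicate, no difference in response could be tested.

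The remaining genes of the pathway were taken from lists written from general knowledge, with earlier results of these data known. The study had already reported *PEN2*, *MYB51* and *ERF6* as higher with flg22 in both genotypes. The lists are therefore not independent of these data, and their counts are a description. Of 7 other core genes, 3 were higher after flg22 in *wlim2a-1* and 2 in WT, and none was lower. Of all genes tested, 5.53% were higher and 4.25% lower in *wlim2a-1*, and 4.47% were higher and 0.471% lower in WT. *GGP1*, a peptidase that trims the glutathione conjugate, had 157 FPKM in *wlim2a-1* flg22 and 45.7 in *wlim2a-1* mock, against 118 in WT flg22 and 32.9 in WT mock. *SOT16*, the sulfotransferase of the last core step, had 329 FPKM in *wlim2a-1* flg22 and 112 in *wlim2a-1* mock, against 221 in WT flg22 and 106 in WT mock. *APK2*, whose product makes the activated sulfate that sulfotransferases use, lies next to *CYP79B2* on chromosome 4. It had 74.1 FPKM in *wlim2a-1* flg22 and 22.1 in *wlim2a-1* mock, against 39.2 in WT flg22 and 19.1 in WT mock, with log2 differences with flg22 of 1.70 in *wlim2a-1* and 0.998 in WT, where it was just under 2-fold. Between the genotypes after flg22, *APK2* differed by 0.90, or 1.07 with either sum scaling, and *SOT16* by 0.57, near the 0.58 of *CYP83B1*. Relative to *ACT2* and *UBQ10*, *SOT16* was under 2-fold for flg22 in both genotypes.

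Downstream of CYP81F2, the 4 methyltransferase genes *IGMT1* to *IGMT4* were higher by at least 2-fold after flg22 in both genotypes, and *IGMT5* in neither. *IGMT2* had 168 FPKM in *wlim2a-1* flg22 and 4.50 in *wlim2a-1* mock, against 154 in WT flg22 and 4.49 in WT mock. Unlike for *CYP81F2*, its mock values were nearly equal, and the log2 differences of *wlim2a-1* mock minus WT mock were −0.55 for *IGMT1*, −0.49 for *IGMT3* and −0.19 for *IGMT4*, of which that of *IGMT4* was above 0 relative to *ACT2* and *UBQ10*. *IGMT1* to *IGMT4* are similar genes side by side on chromosome 1 that can share reads, so their separate values are uncertain. Among 9 genes of breakdown and transport, 3 were higher after flg22 in *wlim2a-1*, against 5.53% of all genes tested, and 2 in WT, against 4.47%. *PCS1*, which acts with PEN2 in defense, had 48.6 FPKM in *wlim2a-1* flg22 and 11.5 in *wlim2a-1* mock, against 36.4 in WT flg22 and 5.91 in WT mock. *PEN1*, a syntaxin gene of penetration resistance, had 141 FPKM in *wlim2a-1* flg22 and 46.5 in *wlim2a-1* mock, against 131 in WT flg22 and 21.4 in WT mock. With a log2 difference of 1.09 between the genotypes in mock, it was at least 2-fold higher in the mutant, and the other 8 were within 2-fold in mock. *PEN1* was under 2-fold with a pseudocount of 5 and with the upper quartile scaling, and *PCS1* also passed, at 1.05, relative to *ACT2* and *UBQ10*. After flg22, *ABCG40*, an ABC transporter gene, was the 1 of the 9 past 2-fold, with 10.4 FPKM in *wlim2a-1* flg22 and 3.18 in WT flg22 and a log2 difference of 1.44. Of all genes tested, 4.48% were higher in *wlim2a-1* in mock and 1.16% after flg22. With a pseudocount of 5 none of the 9 passed in mock or after flg22.

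Of 9 other regulators, *ERF6*, *WRKY33* and *MPK3* were higher after flg22 in both genotypes, beside 5.53% of all genes tested in *wlim2a-1* and 4.47% in WT. Relative to *ACT2* and *UBQ10*, *MPK3* was under 2-fold in *wlim2a-1*, at 0.77. *ERF6*, an ethylene response factor that activates indole glucosinolate genes, differed by 2.80 in *wlim2a-1* and 2.69 in WT. *WRKY33*, a factor of camalexin synthesis, had 159 FPKM in *wlim2a-1* flg22 and 24.9 in *wlim2a-1* mock, against 171 in WT flg22 and 10.7 in WT mock. Over the 4 lists of pathway genes and regulators together, 13 of 33 were higher after flg22 in *wlim2a-1* and 11 of 33 in WT, with none lower, where the share of all genes tested that was higher was 5.53% in *wlim2a-1* and 4.47% in WT. Between the genotypes, 1 of 33 (3.03%) was higher in *wlim2a-1* after flg22, against 1.16% of all genes tested, and 2 of 33 (6.06%) in mock, against 4.48%. With a pseudocount of 5 both counts were 0.

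**Figure D5:**
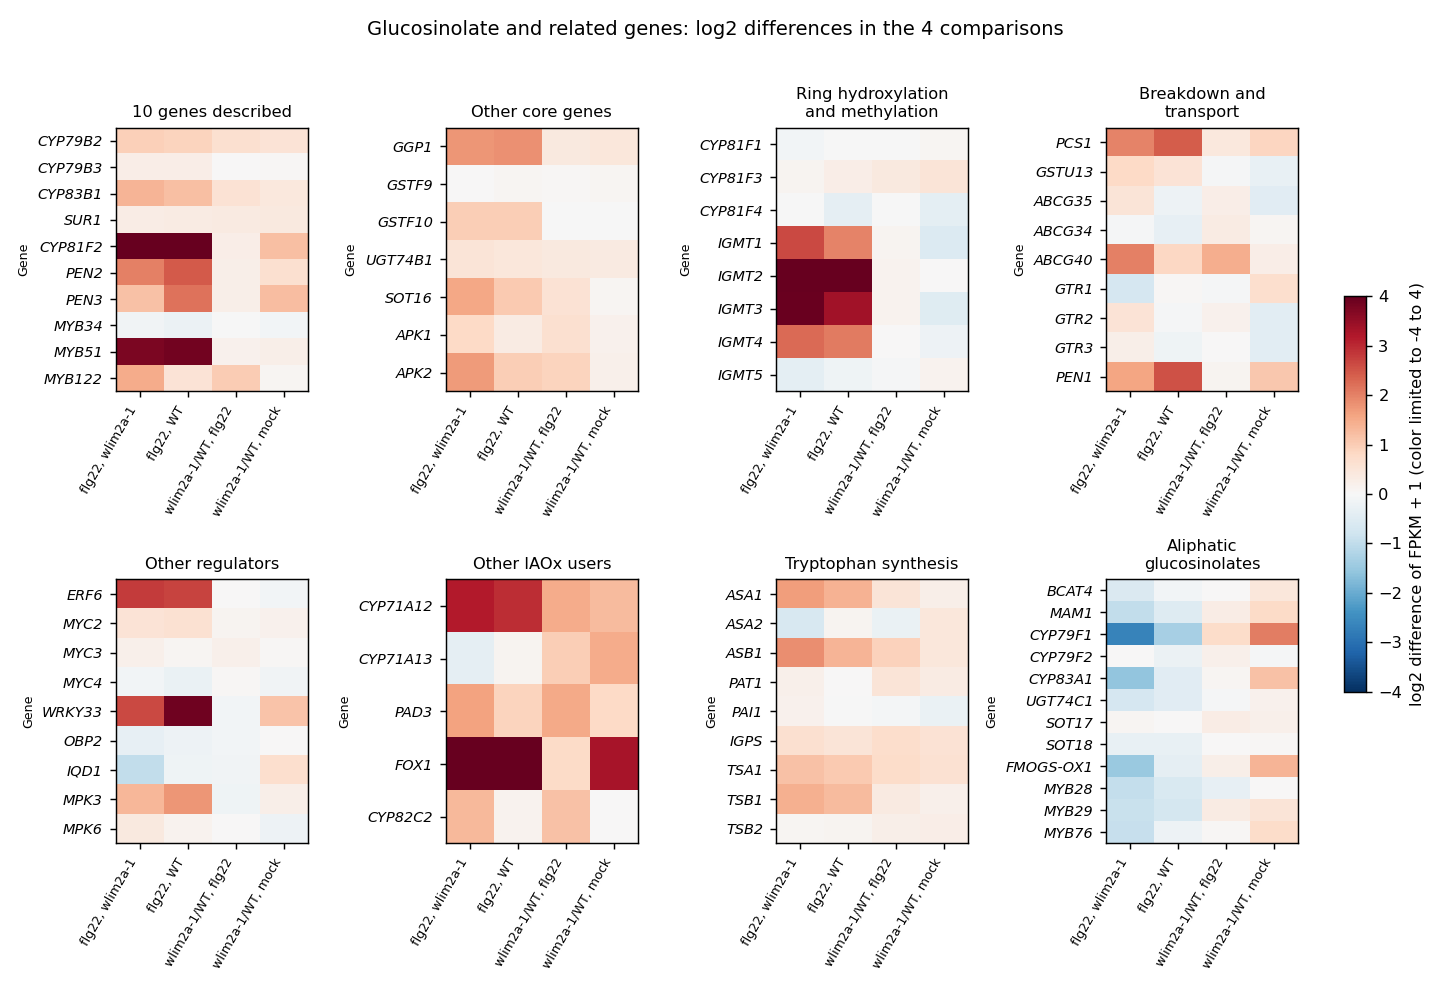
Log2 differences of FPKM + 1 for the 10 genes described and 7 lists of related genes (rows, by gene) in 4 comparisons (columns): flg22 minus mock in *wlim2a-1* and in WT, and *wlim2a-1* minus WT after flg22 and in mock. Red is higher and blue lower, and the color scale is capped at 4 in either direction. IAOx is the aldoxime that CYP79B2 and CYP79B3 produce, and its panel holds genes at any step of other routes from it. The aliphatic glucosinolate panel is mostly blue in the flg22 columns, where the panel of the 10 genes is mostly red.

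The supply of tryptophan and the sister branches showed where the 10 genes stood. Of all genes tested, 5.53% were higher after flg22 in *wlim2a-1* and 4.47% in WT. Of 9 tryptophan synthesis genes, *ASA1*, *ASB1*, *TSA1* and *TSB1* were higher after flg22 in both genotypes, with log2 differences between 1.04 and 1.85. Relative to *ACT2* and *UBQ10*, 2 of the 9 were higher in *wlim2a-1*, against 3.07% of all genes tested, and 0 in WT, against 2.91%. With a pseudocount of 5, the same upper quartile or either sum scaling, 3 were higher in WT. Other routes that start from the aldoxime include camalexin synthesis. Of 5 genes listed for such routes, at any step, 4 were higher after flg22 in *wlim2a-1* and 2 in WT. After flg22, 3 of these 5 were higher in *wlim2a-1* than in WT, against 1.16% of all genes tested. The number was 2 with a pseudocount of 5 and 4 with either sum scaling. *PAD3* was among the 3, with 26.8 FPKM in *wlim2a-1* flg22 and 8.81 in WT flg22. *CYP82C2*, in both the 4 and the 3, reached the minimum of 1 FPKM only in *wlim2a-1* flg22, where it was high. With a minimum of 5 FPKM, 3 genes were left. Of these, 3 were higher after flg22 in *wlim2a-1* and 2 in WT, and 2 were higher in *wlim2a-1* than in WT after flg22. None of the 12 aliphatic glucosinolate genes was higher after flg22. In *wlim2a-1* 3 were lower, against 4.25% of all genes tested, and in WT 1 was lower, against 0.471%. The medians of the 12 were −0.90 in *wlim2a-1* and −0.41 in WT. Relative to *ACT2* and *UBQ10*, 9 were lower after flg22 in *wlim2a-1*, against 18.3% of all genes tested, and 2 in WT, against 1.76%. With a pseudocount of 0.1, 6 were lower in *wlim2a-1*, against 6.58%, and 2 in WT, against 1.12%. With a pseudocount of 5, 2 were lower in *wlim2a-1*, against 1.88%, and 0 in WT, against 0.243%. With WT mock as the baseline for *wlim2a-1* flg22, none was lower, against 0.766%. *CYP83A1* catalyzes for aliphatic compounds the step that *CYP83B1* catalyzes for indole compounds. The ratio of *CYP83B1* to *CYP83A1* was 12.5 in *wlim2a-1* flg22 and 1.59 in *wlim2a-1* mock, against 8.74 in WT flg22 and 2.72 in WT mock. In the same conditions *CYP83A1* had 41.3 and 125 FPKM in *wlim2a-1* flg22 and mock, against 39.2 and 54.5 FPKM in WT flg22 and mock.

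Likeness of pattern was measured as the root mean square difference of log2(FPKM + 1), centered on each gene's mean over the 4 conditions, among genes with at least 10 FPKM in some condition. For *CYP81F2* the nearest of 9987 genes was *AACT1* at 0.09, with 269 FPKM in *wlim2a-1* flg22 and 15.4 in *wlim2a-1* mock, against 258 in WT flg22 and 5.67 in WT mock. For *MYB51* it was AT1G66090 at 0.07, and second was *CNI1* at 0.10, with 120 FPKM in *wlim2a-1* flg22 and 6.73 in *wlim2a-1* mock, against 89.8 in WT flg22 and 5.83 in WT mock. *PEN2* was nearest to AT5G65300 at 0.06, followed by *ERF11* at 0.07, and *PEN3* was nearest to *CAX7* at 0.05. *CYP83B1* was nearest to AT5G15870 at 0.03. *CYP79B3* and *MYB34* varied little, and their nearest genes among the 10 stood far down the order, *SUR1* at number 2237 for *CYP79B3* and *CYP79B3* at number 5714 for *MYB34*.

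Among the 10 genes themselves, *SUR1* and *CYP79B3* were nearest to each other, with a difference of 0.18, and so were *CYP79B2* and *CYP83B1*, with 0.19. For *CYP81F2* and *MYB51* the difference was larger, at 0.51, yet each stood near the front of the other's order. *CYP79B2* was number 42 in the order of *MYB122*, *MYB51* was number 36 in that of *CYP81F2*, and *CYP83B1* was number 80 in that of *CYP79B2*. *PEN2* and *PEN3* were each other's nearest member, at number 108 in the order of *PEN3* and number 150 in that of *PEN2*. These orders rest on 4 values per gene and are a description of these conditions.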

How the data were processed

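Expression was analyzed from 1 table of FPKM values. According to the sample labels and the study's methods, the authors checked reads with FastQC (v0.11.5), trimmed them, aligned them to TAIR10 with TopHat (v2.1.1), assembled transcripts with Cufflinks and applied Cuffdiff (v2.2.1) with quartile normalization. Each deposited FPKM value stands for 3 replicates that the authors combined. Which program wrote them, how shared reads were assigned, the annotation version and the depth are not given in the sources used here. Precision is therefore unknown.

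Values were used as deposited, with Python 3.11.15 and pandas 2.3.3. Genes with at least 1 FPKM in at least 1 condition were compared on log2(FPKM + 1), with calls at 2-fold and no test. Alternatives were other pseudocounts, minimum values, fold thresholds and scalings.

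The 10 genes and all lists were chosen with earlier results of these data known. Named beside the 10 were listed genes past 2-fold, listed genes next to a member, and the nearest genes by pattern. Other values of listed genes were chosen for comparison. Symbols come from the RefSeq annotation of TAIR10.1, which held 97.6% of the loci; all 10 matched. Its coordinates are not printed, since the authors' build was TAIR10.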

Additional observations from a re-analysis of the deposited data

How the results depend on the processing

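Each result was recomputed under 9 alternatives, and 2 more were chosen after seeing the data: the same sum over nuclear genes without AT2G01021, and WT mock as the baseline for *wlim2a-1*. No value that passed 2-fold changed its direction. No paired analysis was possible because the replicates were combined before deposition, and for the same reason no replicate was left out. Of 505 recomputed values of single genes, 449 kept direction and side of the threshold. At 4-fold, 3 of the 10 genes were higher with flg22 in *wlim2a-1* and 0 between the genotypes in mock, after flg22 or in the difference of responses. Scaled to *ACT2* and *UBQ10*, the median response of the 10 genes was 0.70 in *wlim2a-1* and 0.61 in WT, beside medians of all genes of −0.58 and −0.42, with 4 of 10 higher in each. The WT median was 0.99 with a pseudocount of 5, 0.97 with the same upper quartile, 0.998 with the same sum and 0.99 with the same nuclear sum. Between the genotypes in mock, 1 gene was higher with a pseudocount of 5. After flg22, 2 were higher at 1.5-fold, and 0 with a pseudocount of 5, a minimum of 5 FPKM or relative to *ACT2* and *UBQ10*. For the difference of responses, the median of −0.03 was 0.063 with the same upper quartile, 0.18 with the same sum and 0.14 with the same nuclear sum. There, 1 gene was higher with a pseudocount of 0.1, at 1.5-fold and under both sums. The number lower was 2 with a pseudocount of 0.1, at 1.5-fold and relative to *ACT2* and *UBQ10*, and 0 with a pseudocount of 5, the upper quartile and both sums. The cause was not tested. With WT mock as baseline, 7 of the 10 genes were higher in *wlim2a-1* flg22, against 5.84% of all genes tested. Over all genes tested, 1068 were higher and 822 lower with flg22 in *wlim2a-1*, against 593 and 3537 relative to *ACT2* and *UBQ10*, 1348 and 561 with the same sum and 1263 and 629 with the same nuclear sum. In WT, 864 were higher and 91 lower, against 562 and 341 relative to *ACT2* and *UBQ10*. For the difference of responses, 282 were higher and 715 lower, against 453 and 470 with the same sum, 408 and 514 with the same nuclear sum and 225 and 1103 relative to *ACT2* and *UBQ10*. Between the genotypes, 866 were higher and 118 lower in mock and 225 and 68 after flg22. With a pseudocount of 5 these numbers were 395 and 56 in mock and 102 and 35 after flg22, and with one of 0.1 they were 1279 and 299 in mock and 380 and 152 after flg22.

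Depth and replicate spread are unknown. The counts of *MYB122* turn on values of 0.46 to 3.32 FPKM.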

Other observations

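The protein-coding genes next to the 10 genes on the chromosomes, taken in the order of the RefSeq annotation, gave values of their own. Beside *MYB34* lies *RLK1* (AT5G60900), with 1.13 FPKM in *wlim2a-1* flg22 and 6.72 in *wlim2a-1* mock, against 0.22 in WT flg22 and 0.17 in WT mock, while *MYB34* stayed between 24.6 and 29.8 FPKM. Beside *CYP83B1* lies AT4G31490, with 18.8 FPKM in *wlim2a-1* flg22 and 36.0 in *wlim2a-1* mock, against 15.8 in WT flg22 and 17.3 in WT mock. On either side of *MYB51*, AT1G18560 and *GAUT11* had log2 differences with flg22 of 0.01 and −0.27 in *wlim2a-1* and 0.15 and −0.33 in WT. These neighbors were chosen after their values were seen.

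Of the 5 genes of other routes from the aldoxime, 3 passed 2-fold in mock and 3 after flg22, all with the higher level in *wlim2a-1*. Of all genes tested, 4.48% were higher in *wlim2a-1* in mock and 1.16% after flg22. With a pseudocount of 5, 1 passed in mock and 2 after flg22. *CYP71A13*, counted in mock, reached the minimum of 1 FPKM only in *wlim2a-1*. *CYP82C2*, counted after flg22, reached it only in *wlim2a-1* flg22. The testing of both thus depended on the conditions in which they were high. With a minimum of 5 FPKM, 3 genes were left, of which 2 were higher in mock and 2 after flg22. *CYP71A12*, an enzyme of camalexin and related indole defense compounds, had 33.0 FPKM in *wlim2a-1* flg22 and 2.79 in *wlim2a-1* mock, against 11.2 in WT flg22 and 0.57 in WT mock. *FOX1* (AT1G26380) had 299 FPKM in *wlim2a-1* flg22 and 13.5 in *wlim2a-1* mock, against 175 in WT flg22 and 0.47 in WT mock. Its log2 difference between the genotypes was 3.30 in mock and 0.77 after flg22, and that of *CYP71A12* was 1.27 in mock and 1.47 after flg22. *CYP71A12* has a close copy, *CYP71A13*, that can share reads, so its separate value is uncertain.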
